A study of Homo sapiens with 6 samples.

Results

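The genes that encode the cytosolic and mitochondrial chaperones of Calu-6 cells were examined in long-read cDNA libraries. The members were chosen by gene symbol. They comprised the HSP70 (HSPA and HSPH1), HSP90 (HSP90A), small HSP (HSPB), HSP60 and HSP10 (HSPD1 and HSPE1), J protein (DNAJ), CCT (CCT2 to CCT8 and TCP1), prefoldin (PFDN) and BAG (BAG1 to BAG6) families. The endoplasmic reticulum genes HSPA5 and DNAJB9, hyphenated names and names ending in P plus digits were left out. The symbols still reach J proteins of the endoplasmic reticulum or its membrane (DNAJB11, DNAJC3, DNAJB12 and DNAJB14), of which DNAJB11 was tested. The rule found 56 of the 10072 genes in the count table, with 154 of its 21472 transcript models. TCP1 was kept although its symbol ends in P and a digit, because the rule names it in full, and HSP90AB3P, a pseudogene with 1 count, was kept because no digit follows its P.

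Calu-6 is a human lung cancer line, and the labels gave its genotype as WT. Cells were transfected with RNAiMAX for 48 h with 10 nM of a non-silencing siRNA (siControl, 3 libraries) or with 10 nM of an siRNA whose target is TERT Delta 2-4 (siDelta2-4, 3 libraries), a splice form of the telomerase gene in which exon 1 is joined directly to exon 5. The comparison asks which transcripts differ once that variant is targeted. The count columns also carried the word that the study uses for cells selected for an empty Flag-V5 vector, and which of the names holds was not tested. Libraries carry the number found in their column. The study calls the libraries of a group biological replicates. Neither it nor the labels say that these were separate cultures, so p-values measure the spread between these libraries, whatever its source.

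Each library held between 1037468 and 1309241 counts, and the chaperones took 0.284% to 0.322% of them. TERT itself, and so the knockdown, was not analysed here. Levels are given as CPM, a gene's counts scaled to the TMM-adjusted total of its library. On the first principal component of log2 CPM, siControl 1 and siControl 2 lay at -16.9 and -15.2, siControl 3 at -0.36, and the siDelta2-4 libraries from 8.71 to 13.8. Epithelial markers were counted for 5 of 6 genes (summed CPM 280 to 295 in siControl and 276 to 334 in siDelta2-4), and CDH1 was not analysed here. Mesenchymal markers were counted for 2 of 3 genes (CDH2 was not analysed here), with summed CPM of 125 to 146 and 153 to 168. The 5 lung lineage markers and 2 endothelial markers looked for were not analysed here. Blood markers were represented by LYZ alone (up to 2.30 CPM) and fibroblast markers by LUM alone (up to 4.06 CPM), and the part of these marker genes in the results was not tested.

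Chaperones bind unfolded or partly folded proteins and release them in a form that can fold, be handed on or be degraded. HSP70 binds short hydrophobic stretches in a cycle of ATP hydrolysis that J proteins start and that nucleotide exchange factors, among them several BAG proteins, end. HSP90 acts later on kinases and receptors that are nearly folded, small HSPs hold unfolded chains without ATP, prefoldin passes new actin and tubulin chains to the CCT ring, and HSP60 with its HSP10 lid folds proteins inside mitochondria.

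Of the 56 chaperone genes, 29 had enough counts to be tested, and these held 98.5% of the chaperone counts. Only CCT5, HSPD1 and DNAJA2 passed the test (edgeR's quasi-likelihood test, Benjamini-Hochberg adjusted p under 0.1 over all genes), and all 3 were higher in siDelta2-4. That was 10.3% of the tested chaperones, against 13.0% of the 3888 genes tested in all. Without siControl 3 the calls were 6 of 30 (20.0%, against 25.4% of all genes), with DNAJC30, HSP90AB1 and HSPB1 added. Without siDelta2-4 2, CCT5 alone passed (3.45%, against 4.85% of all genes). Higher calls were 10.3% of the chaperones against 7.0% of all genes, and lower calls were 0 against 5.97%. At an unadjusted p under 0.05 the chaperones counted 3 of 29 again, against 23.1% of all genes. The DESeq2 Wald test gave an adjusted p to 16 chaperones and called CCT5 alone, as higher (6.25%, against 13.7% of 1852 genes, 5.02% higher and 8.69% lower). It gave none to HSPD1 or DNAJA2, whose unadjusted DESeq2 p was 0.0032 and 0.0199 in a fit across the 3888 genes tested.

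The CPM values of the 2 groups were fully apart for 4 tested chaperones (CCT5, DNAJA2 and BAG2 higher, HSPB1 lower). This was 13.8%, against 26.0% of all genes tested. Higher without overlap were 10.3% of the chaperones against 14.1% of all genes, and lower 3.45% against 11.9%. The log2 fold change of siDelta2-4 over siControl was above 0 for 21 of 29 chaperones (72.4%), against 53.9% of all genes. Its median was 0.089 for the chaperones and 0.03 for all genes, and 24 of the 29 lay within 0.32 of 0. The tested chaperones were also longer (median transcript length 1667 nt, against 1143 nt for all genes tested), and log2 fold change tended to rise with length. With a trend on length removed, CCT4, DNAJA1, DNAJC30, HSPA8, PFDN4 and TCP1 fell below 0, and HSPE1 and PFDN2 rose above it. These are named genes, and the share of all 29 above 0 in that setting is not given here. In the plot of CPM by library the points of both groups are mixed for most of the chaperones. In these bulk libraries, fewer cells that express a gene and less of its RNA per cell cannot be told apart.

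**Figure D1:**
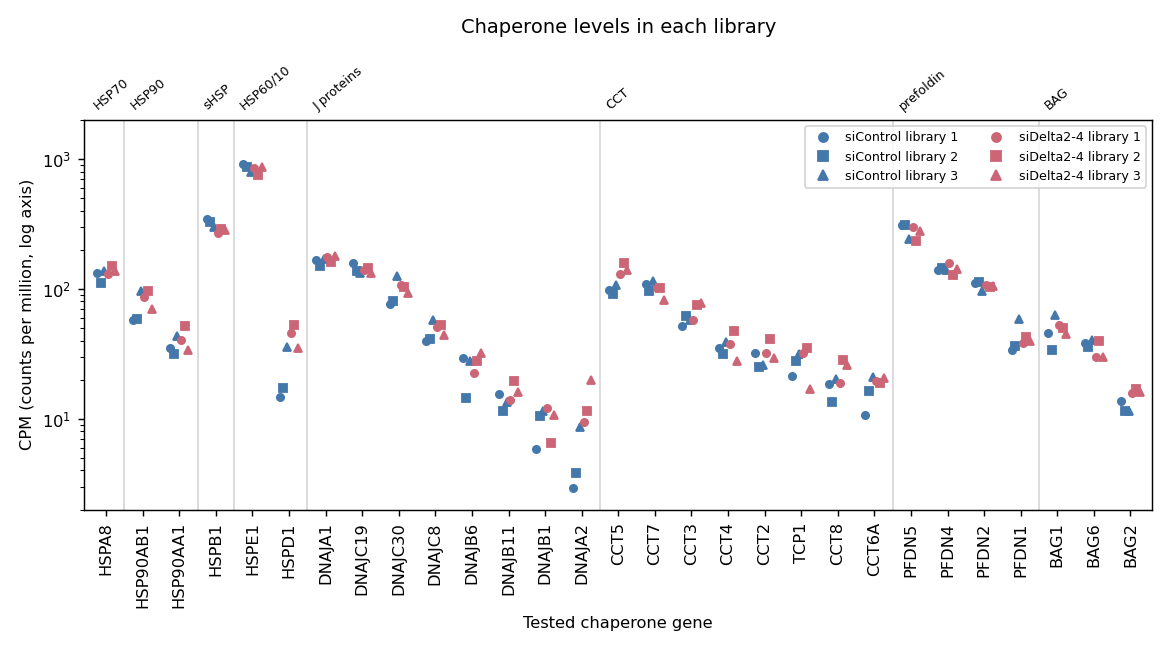
CPM (counts scaled to the TMM-adjusted library total, log axis) of the 29 tested chaperone genes, grouped by family, with 1 point per library (blue siControl, red siDelta2-4, shape for the library number). The red points of CCT5, DNAJA2 and BAG2 all lie above the blue ones, and those of HSPB1 all lie below. Those of HSPD1 overlap with the blue ones because siControl 3, the highest siControl library, is level with siDelta2-4 3, the lowest siDelta2-4 library.

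HSPD1 encodes HSP60, the barrel of the mitochondrial chaperonin, and HSPE1 encodes HSP10, the lid that closes it. HSPD1 lies on chromosome 2 at 197486584 to 197516737 on the minus strand of GRCh38 (Gencode 44). HSPE1 begins on the other strand within that span, at 197500140 to 197503449. The RefSeq start sites of the pair, 197499840 and 197500379, are 539 bases apart, and reads from each gene run away from the space between them. The sequences on both sides of that space are shown because the 2 genes share it and gave different values. Each is the 250 bases before the RefSeq start (GRCh38.p14, written 5′ to 3′ on the gene's own strand). Capitals mark a heat shock element, here GAANNTTCNNGAA or TTCNNGAANNTTC, the inverted repeats bound by the heat shock factor HSF1.
HSPD1, chr2:197499841-197500090, minus strand: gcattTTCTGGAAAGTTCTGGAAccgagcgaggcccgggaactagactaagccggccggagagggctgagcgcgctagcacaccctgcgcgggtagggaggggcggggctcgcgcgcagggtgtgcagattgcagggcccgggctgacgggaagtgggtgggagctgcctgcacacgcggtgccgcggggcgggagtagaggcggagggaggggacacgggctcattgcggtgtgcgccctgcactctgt
HSPE1, chr2:197500129-197500378, plus strand: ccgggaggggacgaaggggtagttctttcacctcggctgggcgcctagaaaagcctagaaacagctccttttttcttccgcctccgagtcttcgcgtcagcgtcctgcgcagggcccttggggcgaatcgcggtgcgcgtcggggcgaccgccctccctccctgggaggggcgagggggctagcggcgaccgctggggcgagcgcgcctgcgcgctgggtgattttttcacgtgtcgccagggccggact

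The capitals in the HSPD1 window are 2 overlapping matches, 228 to 245 bases before the HSPD1 start and 294 to 311 bases before the HSPE1 start. They lie outside the HSPE1 window, which held no match, and 38 bases separate the windows. A match is a description of the letters and not a bound site.

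HSPD1 was counted at 14.6, 17.3 and 35.4 CPM in siControl 1 to 3 and at 45.9, 52.8 and 35.3 CPM in siDelta2-4 1 to 3. The lowest siDelta2-4 library and the highest siControl library were level, so the groups met at that point. The log2 fold change was 0.98 ± 0.26 (SE, n = 3 and 3), with an adjusted p of 0.017 in edgeR's quasi-likelihood test. HSPE1 had the highest CPM per kilobase of transcript among the chaperones and stood at 915, 859 and 798 CPM in siControl and 854, 755 and 859 CPM in siDelta2-4. Its groups overlapped, and the log2 fold change was -0.06 ± 0.09 (SE; adjusted p = 0.735 in edgeR's test). The 95% interval for HSPE1, from -0.23 to 0.12, lies below that for HSPD1, from 0.46 to 1.51. For each HSPD1 count there were 62.5, 49.8 and 22.5 HSPE1 counts in siControl and 18.6, 14.3 and 24.3 in siDelta2-4. The ratio of siControl 3 was below those of siControl 1 and siControl 2 and lay among the siDelta2-4 values, so the groups overlapped.

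Only 0.43% of the HSPD1 counts lay on annotated transcript models. Most were on 1 unannotated combination of known splice sites, 2249 nt long with 12 exons, which the siControl libraries held at 10, 12 and 31 counts and the siDelta2-4 libraries at 34, 51 and 30. Its own log2 fold change was 0.93 ± 0.32 (SE; adjusted p = 0.095 in edgeR's test over transcript models). Without siDelta2-4 2 the HSPD1 gene did not pass the test (log2 fold change 0.84, adjusted p = 0.134 in edgeR), and without siControl 3 the change was 1.45 (adjusted p = 1.9e-05 in edgeR). On annotated models alone HSPD1 could not be tested. HSPE1 and MOB4, its neighbours on the opposite strand, had 5628 and 137 counts beside 230 for HSPD1. The counting is not stated to use strand, and whether reads of overlapping genes were mixed was not tested. The main HSPD1 model has 12 exons, and no counted HSPE1 model has more than 4.

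The CCT ring is built from 8 related subunits that stack as a double barrel and fold actin and tubulin. All 8 subunit genes were tested, 7 had a log2 fold change above 0, and CCT5 alone passed. With a trend on transcript length removed, CCT4 and TCP1 fell below 0 as well. CCT5 lies on chromosome 5 at 10249929 to 10266389 on the plus strand (GRCh38, Gencode 44). It was counted at 97.5, 91.1 and 106 CPM in siControl and at 129, 158 and 140 CPM in siDelta2-4. Each siDelta2-4 library lay above each siControl library, siControl 3 included. The log2 fold change was 0.53 ± 0.12 (SE, n = 3 and 3; adjusted p = 0.0074 in edgeR's quasi-likelihood test), a fold of 1.45 with a 95% interval from 1.21 to 1.73. Among its models, CCT5-201 (3293 nt, 11 exons) held most reads, at 77, 76 and 90 counts against 104, 161 and 157 (log2 fold change 0.61 ± 0.15, adjusted p = 0.016 in edgeR's test over transcript models). The CCT5 gene passed under every alternative that was run, whereas no chaperone model, CCT5-201 included, passed without siControl 1, siControl 2 or siDelta2-4 2.

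CCT8 had the next highest log2 fold change of the ring, 0.50 ± 0.27 (SE; adjusted p = 0.261 in edgeR), with 18.5, 13.4 and 20.1 CPM in siControl and 18.7, 28.4 and 26.1 CPM in siDelta2-4. Almost all of its counts lay on an unannotated model, and 4.90% were on annotated ones. CCT3 stood at 51.7, 61.4 and 57.5 CPM against 58.1, 74.8 and 77.5 CPM (0.31 ± 0.17, adjusted p = 0.261 in edgeR). For both genes the groups overlapped because 1 siDelta2-4 library lay below the highest siControl library. On the opposite strand from CCT3, TSACC had 312 counts beside its 432.

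CCT2, CCT6A, CCT4 and TCP1 had log2 fold changes of 0.30, 0.29, 0.08 and 0.03, each with overlapping groups. CCT7 was the only subunit with a negative value, -0.16 ± 0.14 (SE; adjusted p = 0.498 in edgeR), with 108, 95.9 and 116 CPM in siControl and 102, 102 and 82.1 CPM in siDelta2-4. No subunit other than CCT5 was shown to differ between the groups.

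The summed CPM of the 8 CCT genes was 375, 362 and 418 in siControl and 429, 505 and 420 in siDelta2-4. The groups did not overlap, but the gap between siControl 3 and siDelta2-4 3 was small. Without CCT5 the sums were 278, 271 and 311 against 300, 348 and 280, and the groups overlapped. Within the ring, CCT5 took 25.5% ± 0.42 of siControl counts and 31.5% ± 1.60 of siDelta2-4 counts (mean ± SD of 3 libraries). CCT7 took 27.7% ± 1.19 and 21.2% ± 2.27. There were 0.90, 0.95 and 0.92 CCT5 counts for each CCT7 count in siControl, and 1.27, 1.54 and 1.70 in siDelta2-4. This pair was chosen after the values were seen, so its ratio is a description. CCT5 had the longest count-weighted transcript length of the ring (2857 nt, against 1776 nt for CCT7). Its share and ratio were not adjusted for the trend on length. Per kilobase of transcript, CCT7 held the highest mean share of the ring (28.5%), followed by CCT5 (20.7%), and CCT6A held the lowest (3.71%).

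**Figure D2:**
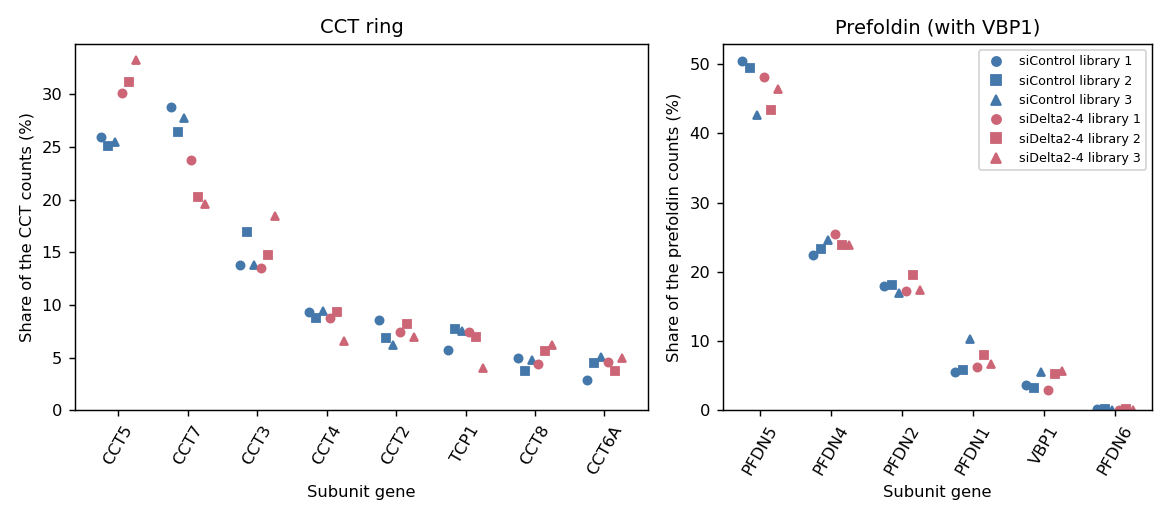
Share of the counts of the CCT ring (left) and of prefoldin with VBP1 (right) taken by each subunit gene, in percent, with 1 point per library (blue siControl, red siDelta2-4, shape for the library number). CCT5 averages 25.5% of the ring's counts in siControl and 31.5% in siDelta2-4 and CCT7 27.7% and 21.2%, in both cases with no overlap between groups, whereas the groups overlap for most other subunits of the ring and for most of prefoldin.

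Prefoldin is a jellyfish-shaped complex of 6 subunits that delivers chains to CCT. PFDN1, PFDN2, PFDN4 and PFDN5 were tested, none passed, and their log2 fold changes lay between -0.10 and 0.02. PFDN5 was counted at 312, 308 and 242 CPM in siControl and at 299, 232 and 278 CPM in siDelta2-4. PFDN4 stood at 138, 145 and 140 CPM against 158, 128 and 143 CPM. PFDN2 stood at 111, 113 and 96.7 CPM against 107, 104 and 104 CPM. For each of these the groups overlapped, and the 95% intervals of the log2 fold change ran from -0.33 to 0.14 for PFDN5, from -0.23 to 0.26 for PFDN4 and from -0.28 to 0.23 for PFDN2.

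PFDN1 was at 34.1, 36.4 and 58.4 CPM in siControl and at 38.4, 42.3 and 39.9 CPM in siDelta2-4, with siControl 3 the highest of all. CYSTM1, on the opposite strand, had 646 counts beside 279 for PFDN1. PFDN6 had only 3 counts in the 6 libraries. VBP1, which encodes the subunit that the symbol rule does not reach, was at 22.4, 20.1 and 31.6 CPM against 17.8, 27.6 and 33.8 CPM (log2 fold change 0.12, adjusted p = 0.838 in edgeR). PFDN5 took 47.5% ± 4.24 of the complex's counts under siControl and 46.0% ± 2.43 under siDelta2-4 (mean ± SD of 3 libraries).

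Cytosolic HSP70 was represented by HSPA8, the constitutive HSC70, which held most of the counts of its family. It was at 132, 111 and 138 CPM in siControl and at 129, 151 and 137 CPM in siDelta2-4, and the groups overlapped (log2 fold change 0.13 ± 0.12, adjusted p = 0.551 in edgeR). The stress-inducible HSPA1A and HSPA1B were not analysed here. HSPA9, the mitochondrial HSP70, had 5, 9 and 9 counts under siControl against 10, 15 and 5, and HSPA14, which works at the ribosome, had 4, 8 and 7 against 7, 15 and 10. Both were too low to be tested. HSPH1, an HSP110 that exchanges nucleotide on HSP70, had 1 count.

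HSP90AA1 and HSP90AB1 encode the inducible and the constitutive cytosolic HSP90. HSP90AB1 was at 57.5, 58.5 and 96.7 CPM in siControl and at 86.1, 96.7 and 69.8 CPM in siDelta2-4 (log2 fold change 0.24 ± 0.18, adjusted p = 0.438 in edgeR). HSP90AA1 was at 35.1, 31.6 and 43.1 CPM against 40.3, 52.0 and 33.8 CPM (0.20 ± 0.21, adjusted p = 0.610 in edgeR). For HSP90AA1 siControl 3 lay among the siDelta2-4 libraries, and for HSP90AB1 it was level with the highest of them. Without siControl 3, HSP90AB1 passed the test (0.51, adjusted p = 0.023 in edgeR).

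The reads of both HSP90 genes also lay on models of different length. Of the counts on tested models, HSP90AA1-201 (3228 nt) took 10.0%, 10.0% and 39.0% in siControl and 32.4%, 32.1% and 29.7% in siDelta2-4. HSP90AB1-203 (2555 nt) took 50.8%, 59.0% and 81.2% against 83.7%, 81.5% and 73.6%. In both genes siControl 1 and siControl 2 had the lowest shares of the long model. The other tested models were unannotated, incomplete matches of 729 to 1414 nt. PFDN4-201 (1230 nt) took 76.1%, 72.2% and 75.3% against 83.4%, 77.7% and 76.3%, without overlap.

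**Figure D3:**
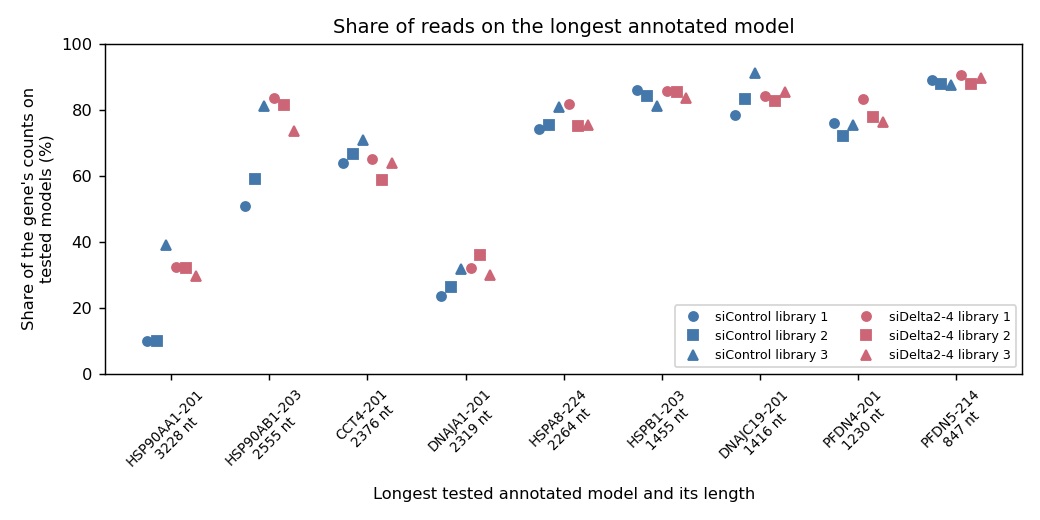
Percent of each gene's counts on tested transcript models that fell on its longest tested annotated model, for the 9 chaperone genes with such a model and at least 1 shorter one, ordered from the longest model (left) to the shortest, with 1 point per library (blue siControl, red siDelta2-4, shape for the library number). The shares of HSP90AA1-201 and HSP90AB1-203 in siControl 3 (39.0% and 81.2%) lie with the siDelta2-4 libraries and not with siControl 1 and siControl 2.

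No chaperone gene passed the test of transcript usage, which asks whether the models of 1 gene changed out of proportion (edgeR's diffSpliceDGE, adjusted p under 0.1). This was 0 of 10 chaperone genes with at least 2 tested models, against 0.618% of 1132 genes. At an unadjusted p under 0.05 there was 1 of the 10, HSP90AB1, against 9.63% of all. Tested separately, 3 of 43 chaperone models passed, all higher (CCT5-201, DNAJA2-201 and the unannotated HSPD1 model), which was 6.98% against 6.91% of 6768 models (3.95% higher and 2.97% lower). Annotated models held 80.7% of the chaperone counts and 45.3% of all counts. DNAJC30, BAG1 and BAG6 were nevertheless counted almost wholly on unannotated models, with 0.76%, 0.31% and 0% on annotated ones.

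J proteins, which carry substrates to HSP70 and trigger its ATPase, were the largest family, with 24 genes. Of these 8 were tested, and DNAJA2, a cytosolic partner of HSC70, alone passed. DNAJA2 lies on chromosome 16 at 46955362 to 46973674 on the minus strand (GRCh38, Gencode 44). It was low, at 2.92, 3.84 and 8.62 CPM in siControl and 9.36, 11.4 and 20.0 CPM in siDelta2-4, from 66 counts in all on 1 annotated model of 3008 nt. The groups did not overlap, although siControl 3 came close to the lowest siDelta2-4 library. The log2 fold change was 1.41 ± 0.42 (SE, n = 3 and 3; adjusted p = 0.039 in edgeR's quasi-likelihood test). The call was lost without siControl 1, siControl 2, siDelta2-4 2 or siDelta2-4 3 (log2 fold changes 1.12, 1.23, 1.53 and 1.00), and DNAJA2 left the test when at least 10 counts were asked of every library.

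The J proteins with the highest CPM did not pass. DNAJA1, the HDJ2 partner of HSC70, was at 166, 151 and 170 CPM in siControl and at 175, 160 and 179 CPM in siDelta2-4 (0.08 ± 0.11, adjusted p = 0.717 in edgeR). DNAJC19, a subunit of the mitochondrial import motor, was at 157, 137 and 133 CPM against 140, 144 and 133 CPM. The counts listed under DNAJC30, a mitochondrial J protein, were at 76.0, 80.6 and 126 CPM against 108, 104 and 92.8 CPM, with siControl 3 the highest library. The groups overlapped in all 3. The DNAJC30 row passed without siControl 3 (0.35, adjusted p = 0.082 in edgeR). Of its 658 counts, all but 5 lay on an unannotated model of 12 exons, whereas the annotated DNAJC30-201 has 1 exon, so these values are not shown to be those of the DNAJC30 mRNA. The other tested J proteins, DNAJB1, DNAJB6, DNAJB11 and DNAJC8, had log2 fold changes from 0.06 to 0.30 and overlapping groups.

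HSPB1, which encodes HSP27, was the only small HSP among the members. It was at 345, 325 and 300 CPM in siControl and at 270, 288 and 285 CPM in siDelta2-4, so that each siDelta2-4 library was below each siControl library. The log2 fold change was -0.20 ± 0.10 (SE), and the gene did not pass (adjusted p = 0.217 in edgeR's quasi-likelihood test). It passed without siControl 3 (-0.28, adjusted p = 0.038 in edgeR) and once the trend on transcript length was removed (-0.35, adjusted p = 0.044 in edgeR).

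Several BAG proteins exchange nucleotide on HSP70. BAG2, which also holds back the ubiquitin ligase CHIP, was at 13.6, 11.5 and 11.5 CPM in siControl and at 15.9, 17.1 and 16.1 CPM in siDelta2-4. The groups did not overlap, yet the gene did not pass (0.42 ± 0.30, adjusted p = 0.419 in edgeR), and RAB23 on the opposite strand had 93 counts beside its 97. BAG1 stood at 45.8, 33.6 and 63.2 CPM against 52.4, 50.4 and 45.3 CPM. BAG6, which guards membrane proteins that have left the ribosome, stood at 38.0, 35.5 and 40.2 CPM against 30.0, 39.8 and 29.9 CPM. Their log2 fold changes were 0.05 and -0.19, with overlapping groups.

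The families are set beside each other in the plot of summed CPM. HSP70 summed to 143 ± 14.8 CPM under siControl and 161 ± 17.5 CPM under siDelta2-4, and HSP90 to 108 ± 28.0 and 126 ± 22.2 CPM (SD, n = 3 each). J proteins summed to 520 ± 54.5 and 555 ± 2.09 CPM, prefoldin to 579 ± 36.3 and 558 ± 48.3 CPM, and BAG to 98.3 ± 17.2 and 100.1 ± 7.99 CPM. The HSP60 and HSP10 sum, which is nearly all HSPE1, was 880 ± 48.0 and 867 ± 51.8 CPM. These 6 families overlapped between groups, and only CCT (higher) and HSPB1 (lower) did not. With a trend on transcript length removed in each library, the difference in summed CPM between siDelta2-4 and siControl turned sign for J proteins (35.0 to -8.33) and for HSP60 and HSP10 (-12.2 to 48.5), and that of CCT went from 66.2 to 23.9.

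**Figure D4:**
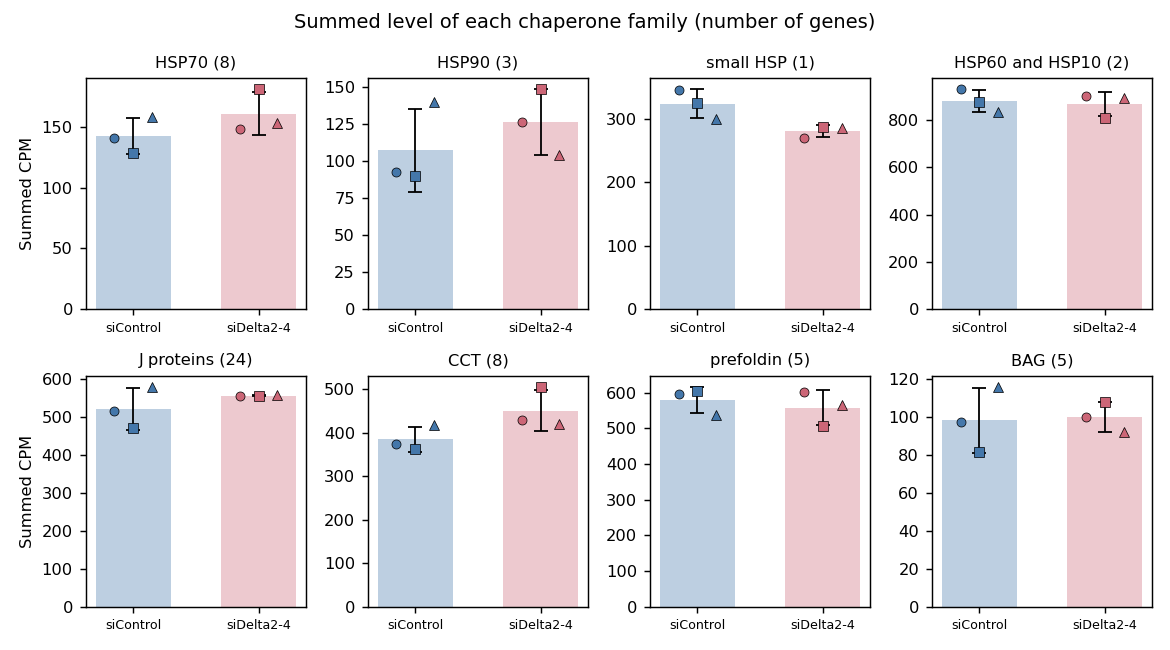
Summed CPM of each chaperone family (number of genes in brackets) in siControl and siDelta2-4, with bars for the mean, black error bars for the SD (n = 3 each) and 1 point per library (circle, square and triangle for libraries 1, 2 and 3). The sum of the 8 CCT genes is higher in each siDelta2-4 library than in each siControl library and that of HSPB1 lower, whereas the other 6 families overlap.

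Transcript length moved with the values. The tested chaperones had a median count-weighted length of 1667 nt, against 1143 nt for all genes tested. Spearman's rho between log2 fold change and length was 0.690 over the 29 chaperones and 0.326 over 3888 genes, a description across genes that share the same libraries. CCT5, HSPD1 and DNAJA2 were all longer than the median chaperone, and HSPB1, HSPE1 and the 4 prefoldin genes were all shorter. Across all genes, rho between length and each library's deviation from the mean was -0.32 and -0.33 in siControl 1 and siControl 2, and 0.12 in siControl 3. In siDelta2-4 it lay between 0.14 and 0.36. With a trend on length removed in each library, CCT5, HSPD1 and DNAJA2 still passed, at log2 fold changes of 0.38, 0.85 and 1.26 (adjusted p = 0.044, 0.043 and 0.081 in edgeR).

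**Figure D5:**
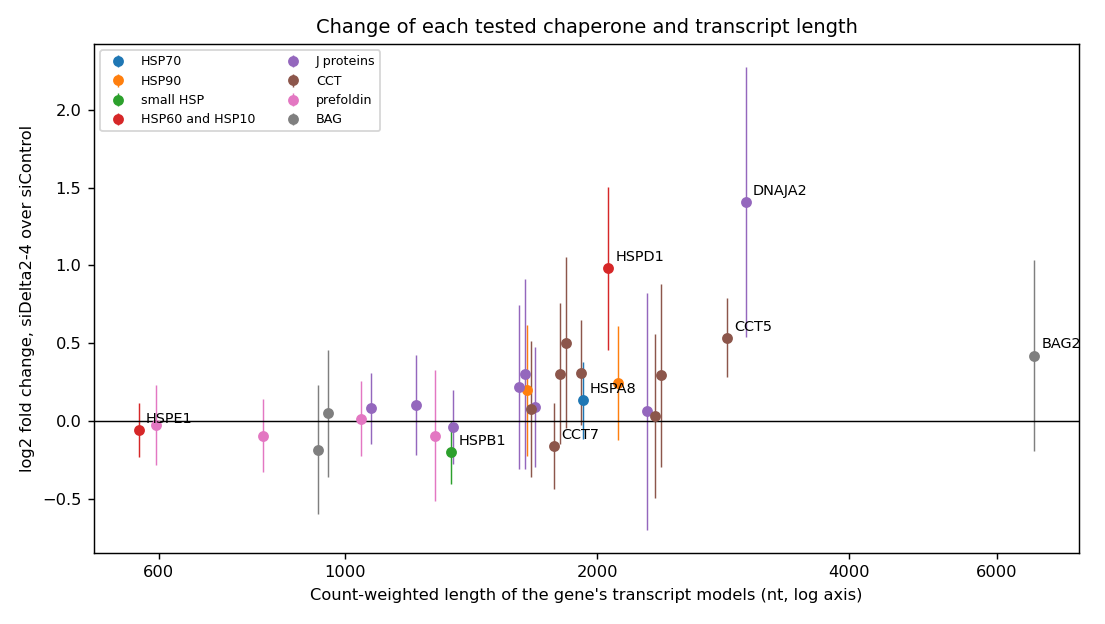
Log2 fold change of siDelta2-4 over siControl (vertical axis, bars for the 95% interval of edgeR's fit) against the count-weighted length of the gene's transcript models in nt (log axis) for the 29 tested chaperones, coloured by family. HSPE1 and HSPB1 lie below 0 and the longer genes CCT5, HSPD1 and DNAJA2 above it, with a rho of 0.690 over the 29. Some genes go the other way, such as DNAJA1 (1074 nt) above 0 and CCT7 (1776 nt) below it.

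Heat shock elements were searched in the 250 bases before the RefSeq start on both strands. Of 56 chaperone genes, 41 had a window within 100 bases of the start of a counted annotated model. GAANNTTCNNGAA or its reverse complement TTCNNGAANNTTC stood in 4 of the 41 (9.76%), against 0.441% of all 35116 windows in the table. The shorter GAANNTTC, which each longer match contains, stood in 10 of the 41 (24.4%), against 5.78% of all windows. The 35116 windows were limited neither to counted genes nor by distance to a model start, so these sets are unlike. The 4 genes with the longer element were HSPD1, HSPA8, HSP90AA1 and DNAJB6. Those not yet printed are shown here, to let the elements be compared with each gene's values, with capitals for the element (RefSeq, GRCh38.p14, gene strand).
HSP90AA1, chr14:102087110-102087142, minus strand: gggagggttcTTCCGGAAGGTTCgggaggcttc
DNAJB6, chr7:157336863-157336895, plus strand: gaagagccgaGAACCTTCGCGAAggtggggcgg
HSPA8, chr11:123062169-123062376, minus strand: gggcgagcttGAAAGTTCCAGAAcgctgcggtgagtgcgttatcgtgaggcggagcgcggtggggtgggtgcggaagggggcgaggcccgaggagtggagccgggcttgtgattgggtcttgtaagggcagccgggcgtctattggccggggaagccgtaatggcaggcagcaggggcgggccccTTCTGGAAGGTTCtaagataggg

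HSPD1 alone of these 4 genes passed the test, and HSPA8, HSP90AA1 and DNAJB6 had log2 fold changes of 0.13, 0.20 and 0.22 with overlapping groups. The median log2 fold change was 0.21 over the 4 tested chaperones with the element and 0.08 over the 18 tested ones with a window and without it, given as a description of small sets. HSPD1 entered through HSPD1-214, an annotated model with 1 of its 230 counts, so the start used by most of its reads is not shown. The RefSeq window of CCT5 lay 257 bases from the start of its most counted model and was not used.

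The 27 chaperone genes that were not tested held between 1 and 53 counts each over the 6 libraries, with a median of 4. Of these, 18 had fewer than 10 counts, and 6 had none in siControl. Each model in the table had at least 1 count in siDelta2-4, so a chaperone counted only in siControl could not be seen. An unannotated chaperone model with fewer than 5 counts in a siDelta2-4 library could not be seen either. With no filter on low counts, all 56 entered the test and the calls were CCT5, HSPD1 and DNAJA2 (5.36%, against 4.13% of 10072 genes).

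The partners of these chaperones were taken from 6 lists of 62 genes, of which 54 had counts and 30 were tested. Of the 30, 3 passed (10.0%, against 13.0% of all genes). SIL1, the nucleotide exchange factor of the HSP70 of the endoplasmic reticulum, was at 41.9, 40.3 and 41.2 CPM in siControl and at 62.7, 69.9 and 56.8 CPM in siDelta2-4 (log2 fold change 0.62 ± 0.17, adjusted p = 0.027 in edgeR). HSPA5, that HSP70 itself, was at 13.6, 9.59 and 19.2 CPM against 29.0, 35.8 and 29.2 CPM (1.14 ± 0.27, adjusted p = 0.0080 in edgeR). HSBP1, a small protein that binds heat shock factor 1, was at 287, 256 and 236 CPM against 182, 182 and 198 CPM (-0.47 ± 0.11, adjusted p = 0.0073 in edgeR). None of the 3 overlapped between groups, siControl 3 included. Their count-weighted lengths were 1478 nt (SIL1), 3875 nt (HSPA5) and 581 nt (HSBP1), against a median of 1143 nt for all genes tested. Their log2 fold changes with the length trend removed are not given here. SIL1 did not pass without siControl 2 (0.60, adjusted p = 0.102 in edgeR) or siDelta2-4 2 (0.53, adjusted p = 0.136 in edgeR), and 7 list genes passed without siControl 3, where 25.4% of all genes passed. Only 5.07% of the SIL1 counts and 0% of the HSBP1 counts lay on annotated models, so neither could be tested on those alone, whereas HSPA5 lay wholly on them.

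None of 6 tested HSP90 co-chaperones passed, and 5 of them had a log2 fold change above 0. Over all lists, the groups did not overlap for 6 higher genes (20.0% of the 30, against 14.1% of all genes) and 2 lower genes (6.67%, against 11.9%). Beside the called genes these were AHSA1, SUGT1, CACYBP and CLPP (higher) and TBCB (lower), named after their values were seen. Among the HSP70 partners 1 of 5 passed (SIL1), and among the endoplasmic reticulum chaperones 1 of 5 (HSPA5). In the list of heat shock factors with HSBP1, only HSBP1 was tested, and it passed. No heat shock factor itself was tested. None of 10 tested partners of CCT and prefoldin and none of 3 mitochondrial quality control genes passed, with median log2 fold changes of 0.01 and -0.0040.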

How the data were processed

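Long-read PCR-cDNA libraries of 3 siControl and 3 siDelta2-4 samples, pooled on 1 flow cell, were analysed. The deposited values were raw counts of reads per transcript model, which the authors made with minimap2 2.14 and SAMtools 1.13 on GRCh38.p14 (versions from the submitters' processing notes), TranscriptClean and TALON against Gencode 44, with a minimum of 5 reads in 3 samples for an unannotated model. Among the chaperones, every unannotated model reached 5 counts in each siDelta2-4 library, whereas some did not in siControl. All 6 count columns were used, and the table held no authors' comparisons. Library totals were 1037468 to 1309241 counts. Precision is that of counting as well as of library spread, so genes of a few counts were only listed.

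Counts were summed per gene, and edgeR 4.0.16 under R 4.3.3 gave the test (filterByExpr, TMM, quasi-likelihood fit of the groups, two-sided, Benjamini-Hochberg over all genes, called at an adjusted p under 0.1). SE is the log2 fold change over the square root of F. Transcript models and usage (diffSpliceDGE) were tested likewise. Scripts were tested on simulated data. Coordinates came from Gencode 44 and promoter windows from RefSeq, which gave 49 of the 56 members a window. Family sums, shares and ratios carry no test. Named genes were the called members, all members of HSP90, HSP60 and HSP10, CCT and prefoldin, the 3 with the highest CPM in the other families, VBP1 and called partner genes; other names were added after values were seen. The members, lists and tests were chosen with earlier results of these data known. As alternatives, DESeq2 1.42.0 (Wald test) replaced edgeR; DESeq2 size factors, raw library totals, or TMM factors that leave out the genes of ribosomal proteins and of the mitochondrial genome replaced TMM. The low-count filter was dropped or set to a minimum of 10 counts per library, the threshold was lowered to 0.05, and a loess trend on length (span 0.4) was taken out. Other fits used known models only, the same row rule in either group (5 counts or more in each library for an unannotated model, and a count on both sides for a known one), a block on the column number, and left out 1 library at a time.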

Additional observations from a re-analysis of the deposited data

How the results depend on the processing

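The CCT5 gene passed in every setting run, with adjusted p from 0.00084 to 0.085 over the edgeR and DESeq2 fits. The 3 chaperone calls became 1 with the DESeq2 Wald test, which gave no adjusted p to HSPD1 and DNAJA2, and ranged from 1 (without siDelta2-4 2) to 6 (without siControl 3, which added DNAJC30, HSP90AB1 and HSPB1) when each library was left out. Partner genes called ranged from 2 to 7 (7 without siControl 3), member models called from 0 (without siControl 1, siControl 2 or siDelta2-4 2) to 7 (without siControl 3), and genes with changed usage from 0 to 2 (2 without siControl 3). At an adjusted p under 0.05 the member models called were 1.

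Over all genes, 504 calls became 304 at an adjusted p under 0.05, 252 on known models alone and 254 with the DESeq2 Wald test, and 194 to 1041 when each library was left out. Library totals alone moved the median of all genes to 0.09 (log2) and the calls to 361 higher and 152 lower, against 272 and 232. With the column number as a replicate block, all genes gave 299 calls and the chaperones 3, CCT5, HSPD1 and DNAJA2 again. Libraries that share a number did not deviate together (correlations 0.04, -0.14 and -0.08), so the numbers were not taken to pair them.

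With the length trend removed, the differences in summed CPM became -74.0 for small HSP, 48.5 for HSP60 and HSP10, -8.33 for J proteins and 23.9 for CCT, in place of -42.4, -12.2, 35.0 and 66.2; the cause was not tested. Of 29 named genes, 13 changed sign in at least 1 setting, none of them called. With the length trend removed these were CCT4 (-0.067), DNAJA1 (-0.014), DNAJC30 (-0.024), HSPA8 (-0.0053), HSPE1 (0.051), PFDN2 (0.081), PFDN4 (-0.070), TCP1 (-0.11) and VBP1 (-0.021). With library totals alone they were DNAJC19 (0.032), HSPE1 (0.0097) and PFDN2 (0.042). PFDN4 became -0.011 with DESeq2 size factors, -0.0068 with TMM factors that leave out ribosomal protein and mitochondrial genes, -0.00091 with no filter and -0.010 with the DESeq2 Wald test, and TCP1 became -0.00024 on known models alone. When each library was left out, the log2 fold change ranged across 0 for BAG1 (-0.15 to 0.29), CCT4 (-0.13 to 0.26), DNAJC19 (-0.11 to 0.017), DNAJC30 (-0.049 to 0.35), PFDN1 (-0.26 to 0.17), PFDN2 (-0.12 to 0.011), PFDN4 (-0.066 to 0.090), PFDN5 (-0.23 to 0.0033), TCP1 (-0.18 to 0.31) and VBP1 (-0.11 to 0.31). Under the filter on low counts 27 of the 56 chaperones were not tested, and without it none of these passed.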
